A study of Mus musculus with 24 samples.

Results

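The proteasome genes examined here were all targets of a mouse whole-transcriptome probe panel whose symbol is Psma, Psmb, Psmc, Psmd, Psme, Psmf or Psmg followed by a number. The rule matched 50 of 19962 targets. Psmc3ip and Psme3ip1 matched by name but encode proteins that bind a subunit and are no subunit themselves. They were set aside, Psme3ip1 after it had been seen in the match, which left 48 genes.

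The genes were read in 24 regions of mouse brain sections by GeoMx, a spatial assay in which probe barcodes are cut loose by light from a chosen area and counted. The title of the series names Lyn, a Src-family kinase of macrophages, subarachnoid haemorrhage and sex, and the comparisons below ask how the genotypes and the sexes differed. The 6 groups, of 4 regions each, were MG-cKO males, BMM-cKO males, WT males, MG-cKO females, BMM-cKO females and WT females. MG-cKO and BMM-cKO are conditional knockouts whose abbreviations the labels do not spell out, and no label gives the Cre driver, the strain, the age or the time after surgery. The submitters' design calls the wild type WT-SAH, so haemorrhage was shared at least by the WT groups, and no sham region was analysed here. The males were scanned as scan 2 and the females as scan 3, and sex and scan therefore cannot be told apart. No label ties a region to an animal, and the design counts 4 regions to each slice. P-values below therefore rest on regions alone, whose spread may be technical, and are too small wherever regions share an animal. If the 4 regions of a group share a slice, genotype and sex cannot be told apart from the animal. The p-values would then test neither.

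The proteasome is the main protease of the cytosol and nucleus and degrades proteins tagged with ubiquitin. Its core is a barrel of alpha rings, which form the gate, and beta rings, which carry the active sites, and a regulatory particle with a ring of ATPases and a set of non-ATPase subunits binds, unfolds and feeds in the substrate. In cells exposed to interferon, as microglia and macrophages can be after injury, the catalytic subunits Psmb6, Psmb7 and Psmb5 are replaced by Psmb9, Psmb10 and Psmb8 to give the immunoproteasome, which makes peptides for antigen presentation.

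The promoters of 4 genes are shown first because these genes are among those with the largest rises described below, Psmc1 and Psmc5 among the ATPases in MG-cKO females and the chaperones Psmg1 and Psmg3 in BMM-cKO males. Each window runs from 250 bases before to 50 bases after the RefSeq start (GRCm38.p6), 5′ to 3′ on the gene's strand. Capitals mark a match to CCGGAAG, the core letters bound by ETS-family factors, on either strand. The windows are chr12:100109952-100110251 on the plus strand for Psmc1, chr11:106255935-106256234 on the plus strand for Psmc5, chr16:95990911-95991210 on the minus strand for Psmg1 and chr5:139826845-139827144 on the minus strand for Psmg3.
Psmc1: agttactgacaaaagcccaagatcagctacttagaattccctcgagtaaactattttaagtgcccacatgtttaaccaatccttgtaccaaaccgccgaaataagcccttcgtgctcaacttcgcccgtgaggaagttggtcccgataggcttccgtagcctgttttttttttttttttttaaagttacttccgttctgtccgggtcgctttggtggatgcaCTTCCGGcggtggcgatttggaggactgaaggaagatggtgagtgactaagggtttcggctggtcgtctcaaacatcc
Psmc5: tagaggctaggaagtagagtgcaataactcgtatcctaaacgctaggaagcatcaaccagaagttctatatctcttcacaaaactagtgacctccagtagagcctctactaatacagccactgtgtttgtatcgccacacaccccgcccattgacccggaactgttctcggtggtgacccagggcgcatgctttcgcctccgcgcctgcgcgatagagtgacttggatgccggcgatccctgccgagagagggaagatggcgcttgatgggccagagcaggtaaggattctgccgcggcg
Psmg1: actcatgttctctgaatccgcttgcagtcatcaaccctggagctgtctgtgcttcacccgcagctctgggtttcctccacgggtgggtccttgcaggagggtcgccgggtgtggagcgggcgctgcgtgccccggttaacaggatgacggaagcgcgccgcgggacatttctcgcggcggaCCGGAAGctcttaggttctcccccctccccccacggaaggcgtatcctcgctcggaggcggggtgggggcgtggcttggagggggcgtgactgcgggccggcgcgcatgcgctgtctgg
Psmg3: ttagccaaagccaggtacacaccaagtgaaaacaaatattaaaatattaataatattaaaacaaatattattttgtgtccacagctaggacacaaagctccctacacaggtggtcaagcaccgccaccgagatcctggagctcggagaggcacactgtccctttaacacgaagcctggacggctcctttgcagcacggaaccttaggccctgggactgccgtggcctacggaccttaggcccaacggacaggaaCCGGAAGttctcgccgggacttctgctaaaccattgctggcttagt

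The ETS core lay on the opposite strand in Psmc1, with its first base at position -28 from the start, at position -69 in Psmg1 and at position 5 in Psmg3, and these letters were not in the Psmc5 window. RefSeq windows were at hand for 40 of the 48 genes, 43 windows in all. Psma8, Psmb1, Psmb2, Psmb7, Psmc3, Psmd3, Psmd7 and Psmg2 had none. The ETS core was in 15 of 43 windows (34.9%), against 8.86% of all 32851 windows of the same length. The genes with it were Psma6, Psmc1, Psmc2, Psmc6, Psmd2, Psmd4, Psmd6, Psmd11, Psmd12, Psmd13, Psme3, Psme4, Psmg1 and Psmg3. The antioxidant response element core TGACNNNGC, the letters bound by Nfe2l1 and its relatives, was in 6 windows (14.0%, against 12.4% of all windows). CCAAT was in 14 windows (32.6%, against 37.4%), among them that of Psmc1, where its first base was at position -175. Each motif was searched on both strands, no capitals overlap the CCAAT match, and a match describes letters and not a bound site.

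Estimated from the step between deposited values, a region held 1839154 to 10779960 barcode tags, and its median target 87 to 506 tags. Levels are given as the ratio to the negative probe of the same region, a probe with no mouse target. A ratio of 1 is the level of that probe, called background below. Single probes can lie to either side of it, as those of Psma8 of the testis (mean 0.669) and Psmb11 of the thymus (1.32) did. A ratio of 1.2 to 1.5 therefore does not by itself show expression. The negative probe lay at 0.894 to 0.997 times the median target, and only 0.902% to 7.99% of targets were above a ratio of 2. Lyn was near background in every group, at a ratio of 0.878 to 1.18 in MG-cKO males, 1.10 to 1.22 in BMM-cKO males, 1.01 to 1.05 in WT males and, among females, 1.01 to 1.10 in MG-cKO, 0.979 to 1.22 in BMM-cKO and 1.07 to 1.16 in WT females. By limma it was lower in MG-cKO against WT females, at -0.23 ± 0.09 on the log2 scale (adjusted p = 0.0446, and 0.0905 without the filter on low targets), and not called in MG-cKO against WT males (0.00). In BMM-cKO it was at 0.18 ± 0.09 against WT males (limma adjusted p = 0.0696), a difference called higher without the filter (0.25, adjusted p = 0.0135), and at -0.08 against WT females. Where its probe lies in the gene is not known here, so these values do not check the genotypes. The labels call the cells macrophages. Of 9 measured markers of infiltrating monocytes and macrophages none averaged above 2, with a median ratio of 0.918, and 1 of the 9 passed the filter on low targets. The 10 microglia markers had a median of 1.55, with Aif1 highest at 2.05, C1qb at 1.77 and Csf1r at 1.76, and Tmem119, for which the sections were stained, was lowest at 0.810 and below the filter. Of 9 neuron markers 8 averaged above 2. In such regions fewer cells of a type and less RNA per cell cannot be told apart.

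Most proteasome genes stood above the negative probe, at low ratios. Over the 24 regions the mean ratio was above 2 for 5 of 48 genes, above 1.5 for 23 and under 1.2 for 10, and the median gene lay at 1.47, against 1.06 for the median of all targets. Probes differ in yield, so the ratios show how far a gene stood above the negative probe and not which subunit was the more abundant. Psmb6, Psmc3, Psmd4, Psmb4 and Psmb7 were the 5 genes above 2, with mean ratios of 2.41, 2.40, 2.39, 2.18 and 2.05. They come from the beta ring, the ATPase ring and the non-ATPase subunits.

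**Figure D1:**
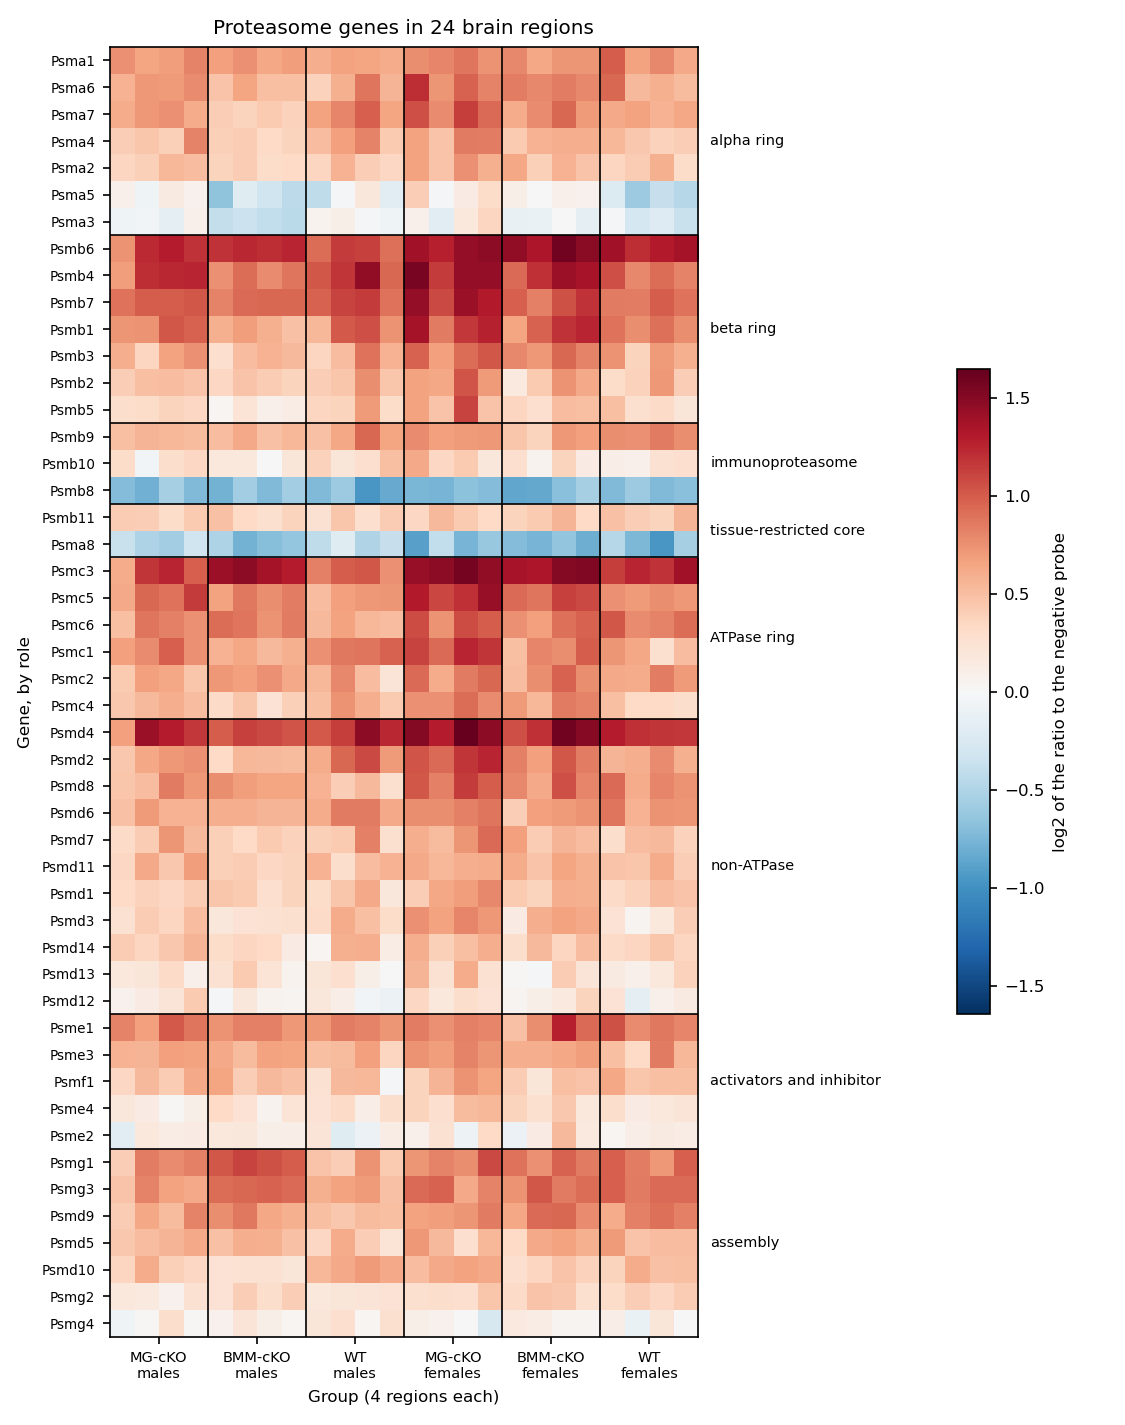
Log2 ratio to the negative probe for each of the 48 genes (down the page, by role) in each of 24 regions (4 columns per group, MG-cKO, BMM-cKO and WT males and then females), with red above and blue below the negative probe. Psmb6, Psmc3 and Psmd4 are dark in most regions, and Psmb8 and Psma8 are blue in every region.

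The beta ring stood furthest from background among the core genes, with a median over its 7 genes of 1.87, and 5 of the 7 averaged above 1.5. Psmb6, the catalytic subunit that cuts after acidic residues, read 1.66, 2.35, 2.46 and 2.28 in MG-cKO regions of males, 2.28, 2.35, 2.31 and 2.38 in those of BMM-cKO males and 1.88, 2.21, 2.17 and 1.88 in those of WT males. In females Psmb6 read 2.61, 2.43, 2.72 and 2.77 in MG-cKO, 2.74, 2.51, 3.00 and 2.81 in BMM-cKO and 2.60, 2.33, 2.48 and 2.59 in WT regions. All 12 female values lay above 2, and MG-cKO male region 1 was the lowest of the 24. The alpha ring was nearer background, with a median of 1.46 over 7 genes. Psma1 read 1.69, 1.56, 1.61 and 1.76 in MG-cKO regions of males, 1.60, 1.68, 1.55 and 1.61 in those of BMM-cKO males and 1.52, 1.58, 1.57 and 1.53 in those of WT males. In females Psma1 read 1.70, 1.75, 1.84 and 1.67 in MG-cKO, 1.74, 1.56, 1.66 and 1.66 in BMM-cKO and 2.00, 1.58, 1.73 and 1.53 in WT regions. Of these groups only the MG-cKO females and the WT males did not overlap, and WT female region 1 was the highest of the 24. Psma6 read 1.49, 1.64, 1.62 and 1.71 in MG-cKO regions of males, 1.38, 1.57, 1.41 and 1.42 in those of BMM-cKO males and 1.30, 1.51, 1.84 and 1.47 in those of WT males. In females Psma6 read 2.32, 1.65, 1.95 and 1.75 in MG-cKO, 1.80, 1.73, 1.80 and 1.73 in BMM-cKO and 1.93, 1.44, 1.49 and 1.44 in WT regions. MG-cKO female region 1 was the highest of the 24, and WT female region 1 stood well above the other 3 of its group. Psma3 and Psma5 lay below the negative probe on average, at 0.938 and 0.951.

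The ATPase ring had a median of 1.75 over its 6 genes, and 5 of the 6 averaged above 1.5. The non-ATPase subunits were more spread, between 1.11 for Psmd12 and 2.39 for Psmd4, with a median of 1.43 over 11 genes. Psmd4, a ubiquitin receptor of the regulatory particle, read 1.60, 2.69, 2.45 and 2.23 in MG-cKO regions of males, 1.99, 2.18, 2.13 and 2.05 in those of BMM-cKO males and 2.02, 2.20, 2.76 and 2.37 in those of WT males. In females Psmd4 read 2.85, 2.44, 3.13 and 2.77 in MG-cKO, 2.08, 2.29, 2.99 and 2.83 in BMM-cKO and 2.46, 2.31, 2.26 and 2.23 in WT regions. MG-cKO male region 1 was again the lowest of the 24, as it was for Psmb6, Psmc3 and Psmb4. That region also had the lowest share of all targets above a ratio of 2 among the 24, at 0.902%.

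The immunoproteasome genes differed among themselves. Psmb8 read 0.612, 0.580, 0.686 and 0.603 in MG-cKO regions of males, 0.584, 0.671, 0.607 and 0.674 in those of BMM-cKO males and 0.604, 0.659, 0.517 and 0.565 in those of WT males. In females Psmb8 read 0.595, 0.591, 0.628 and 0.612 in MG-cKO, 0.551, 0.560, 0.620 and 0.684 in BMM-cKO and 0.603, 0.663, 0.602 and 0.623 in WT regions. Every value was under 0.7, below the negative probe, so a difference in Psmb8 could not be told from background. Psmb10 read 1.24, 0.974, 1.22 and 1.27 in MG-cKO regions of males, 1.13, 1.12, 1.00 and 1.15 in those of BMM-cKO males and 1.30, 1.14, 1.21 and 1.41 in those of WT males. In females Psmb10 read 1.54, 1.27, 1.35 and 1.14 in MG-cKO, 1.21, 1.04, 1.29 and 1.10 in BMM-cKO and 1.07, 1.06, 1.19 and 1.22 in WT regions. All 24 values lay between 0.974 and 1.54, close to background, and every group overlapped every other. Psmb9 was the only one of the 3 to average above 1.5, at 1.56, and its regions are given with the comparisons.

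Of the core subunits known from other tissues, Psma8, the alpha subunit of the testis, read 0.778, 0.702, 0.672 and 0.795 in MG-cKO regions of males, 0.702, 0.585, 0.615 and 0.644 in those of BMM-cKO males and 0.747, 0.871, 0.709 and 0.767 in those of WT males. In females Psma8 read 0.539, 0.753, 0.588 and 0.648 in MG-cKO, 0.611, 0.586, 0.637 and 0.574 in BMM-cKO and 0.724, 0.598, 0.516 and 0.687 in WT regions. No value reached the negative probe. Psmb11, the thymus-restricted beta subunit, read 1.33, 1.32, 1.23 and 1.35 in MG-cKO regions of males, 1.40, 1.25, 1.20 and 1.29 in those of BMM-cKO males and 1.19, 1.37, 1.21 and 1.34 in those of WT males. In females Psmb11 read 1.27, 1.45, 1.35 and 1.26 in MG-cKO, 1.29, 1.34, 1.47 and 1.25 in BMM-cKO and 1.39, 1.32, 1.29 and 1.48 in WT regions. All 24 values were above the negative probe, between 1.19 and 1.48, and every group overlapped every other.

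Among the activators, which open the core without ATP, the highest were Psme1, a subunit of the interferon-inducible activator, and Psme3, its nuclear relative. Psme1 read 1.77, 1.60, 2.01 and 1.85 in MG-cKO regions of males, 1.67, 1.77, 1.77 and 1.64 in those of BMM-cKO males and 1.64, 1.79, 1.77 and 1.66 in those of WT males. In females Psme1 read 1.79, 1.68, 1.77 and 1.74 in MG-cKO, 1.40, 1.70, 2.43 and 1.90 in BMM-cKO and 2.06, 1.72, 1.82 and 1.74 in WT regions. BMM-cKO females held both the highest and the lowest of the 24 values. Psme3 read 1.48, 1.47, 1.59 and 1.58 in MG-cKO regions of males, 1.54, 1.44, 1.58 and 1.56 in those of BMM-cKO males and 1.41, 1.43, 1.60 and 1.28 in those of WT males. In females Psme3 read 1.67, 1.61, 1.76 and 1.66 in MG-cKO, 1.51, 1.52, 1.55 and 1.61 in BMM-cKO and 1.40, 1.25, 1.81 and 1.45 in WT regions. WT females held both the lowest and the highest of the 24 values. Psme2, the partner of Psme1 in the same ring, averaged 1.08 and Psme4 1.19, and the inhibitor Psmf1 averaged 1.39.

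Summed up by region, the median ratio over the 48 genes was 1.44 ± 0.0717 in MG-cKO males, 1.36 ± 0.0122 in BMM-cKO males and 1.45 ± 0.0950 in WT males (SD, n = 4 regions each). In females it was 1.66 ± 0.0698 in MG-cKO, 1.52 ± 0.0884 in BMM-cKO and 1.44 ± 0.0496 in WT regions. The MG-cKO female regions were all above the WT female regions, at 1.56 to 1.73 against 1.38 to 1.49. The median over all targets was also higher in these regions, at 1.06 to 1.12 in MG-cKO against 1.01 to 1.04 in WT females. A region had 6 to 14 of the 48 genes above a ratio of 2 in MG-cKO, 3 to 10 in BMM-cKO and 3 to 6 in WT females. In males the counts were 0 to 6 in MG-cKO, 3 to 4 in BMM-cKO and 1 to 7 in WT regions. Of all targets, 4.25% to 7.99% were above a ratio of 2 in MG-cKO female regions and 2.69% to 3.49% in WT female regions. The difference between these females in median and in genes above 2 was thus shared in direction by all targets.

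The neuron markers differed by region as well. The summed ratio of the 9 neuron markers was 47.3 to 83.6 in MG-cKO, 13.9 to 35.3 in BMM-cKO and 18.2 to 28.8 in WT females. In males it was 19.0 to 30.0 in MG-cKO, 14.9 to 16.2 in BMM-cKO and 22.6 to 30.8 in WT regions. Among MG-cKO females, region 2 had both the lowest neuron sum and the lowest proteasome median, 47.3 and 1.56. The BMM-cKO female region with the lowest neuron sum of all 24, 13.9, had the highest proteasome median of its group, 1.61. That region also had the highest median over all targets of its group, 1.10. The summed ratio of the oligodendrocyte markers ran from 7.69 to 34.9 within the BMM-cKO females. The part of neurons and other cells in the proteasome median was not tested.

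**Figure D2:**
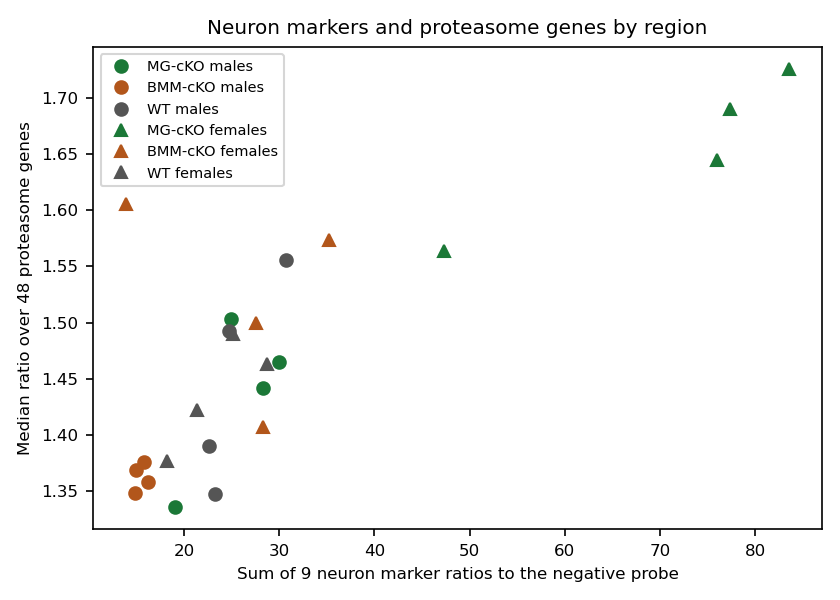
Summed ratio of 9 neuron markers (x axis) and median ratio over 48 proteasome genes (y axis), both relative to the negative probe, with 1 point per region and colours and shapes for the 6 groups. The 4 MG-cKO female regions lie at neuron sums of 47.3 to 83.6, to the right of all others, and 1 BMM-cKO female region lies at 13.9 with a median of 1.61.

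Differences between groups were tested with limma on log2(value + 1), with each region centred on its median over the 9981 targets above the median level, and a gene was called at a Benjamini-Hochberg adjusted p under 0.05 over those targets. Of the 48 genes 43 passed this filter, and Psma3, Psma5, Psma8, Psmb8 and Psmg4 did not. A log2 change is thus relative to the median tested target. The authors scaled each group apart. Counts on the deposited scale, given beside the others, therefore put most targets on 1 side, except in the MG-cKO difference between the sexes.

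In MG-cKO against WT females, Psmc1, Psmc5 and Psmc4 of the ATPase ring, Psmd3 and Psmd2 of the regulatory particle, Psmb4 and Psmb7 of the beta ring and Psma7 of the alpha ring were higher, and the immunoproteasome subunit Psmb9 was lower. Of 43 genes, 8 rose and 1 fell, 9 in all, and the median gene changed by 0.08, against -0.02 for all tested targets. Across all tested targets 29.8% were called, 17.9% higher and 11.9% lower, so that the proteasome share of 20.9% was below the background. The rises comprised 3 of 6 ATPase genes, 2 of 11 non-ATPase genes, 2 of 7 beta ring genes and 1 of 5 alpha ring genes, and none of the 6 assembly genes or 5 activator and inhibitor genes was called. The ratios of the 2 groups did not overlap for 10 of the 48 genes, against 18.7% of all targets.

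Psmc1, an ATPase of the ring that opens the gate of the core, read 2.16, 1.91, 2.38 and 2.26 in MG-cKO, 1.41, 1.74, 1.70 and 1.99 in BMM-cKO and 1.66, 1.55, 1.20 and 1.42 in WT females. The MG-cKO values were all above the WT values, and the BMM-cKO values lay across both. The log2 change against WT was 0.46 ± 0.09 (SE), a 1.37-fold rise with limma adjusted p = 0.000421. Psmc5, another ATPase of the ring, read 2.47, 2.14, 2.29 and 2.71 in MG-cKO, 1.92, 1.84, 2.18 and 2.13 in BMM-cKO and 1.68, 1.62, 1.70 and 1.64 in WT females. Both knockouts lay above WT without overlap, and WT varied least. Psmc5 rose by 0.40 ± 0.08 (limma adjusted p = 0.000609) in MG-cKO females. Psmc4, a further ATPase, rose by 0.31 ± 0.07 (limma adjusted p = 0.00201), at 1.68, 1.68, 1.89 and 1.71 in MG-cKO females against 1.41, 1.25, 1.25 and 1.22 in WT females, again without overlap. The other 3 ATPase genes, Psmc2, Psmc3 and Psmc6, were not called, with log2 changes of 0.01, 0.12 and -0.04.

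Psmd3 and Psmd2 are scaffold subunits of the regulatory particle, in its lid and its base. Psmd3 read 1.68, 1.58, 1.75 and 1.64 in MG-cKO, 1.10, 1.52, 1.58 and 1.55 in BMM-cKO and 1.18, 1.03, 1.13 and 1.32 in WT females, with a rise of 0.39 ± 0.09 (limma adjusted p = 0.00115) in MG-cKO. Psmd2 read 2.04, 1.91, 2.26 and 2.38 in MG-cKO, 1.77, 1.59, 2.03 and 1.79 in BMM-cKO and 1.47, 1.51, 1.71 and 1.50 in WT females, with a rise of 0.34 ± 0.09 (adjusted p = 0.0036) in MG-cKO. In both genes all MG-cKO values were above all WT values. In the beta ring, Psmb4 read 2.96, 2.21, 2.73 and 2.72 in MG-cKO, 1.90, 2.30, 2.65 and 2.56 in BMM-cKO and 2.08, 1.74, 1.89 and 1.75 in WT females. Psmb4 rose by 0.38 ± 0.11 (limma adjusted p = 0.00967), with MG-cKO above WT without overlap, and this call was lost with quantile normalization (0.14, adjusted p = 0.221). Psmb7, the catalytic subunit that cuts after basic residues, rose by 0.29 ± 0.08 (limma adjusted p = 0.00761), at 2.50 ± 0.277 in MG-cKO and 1.86 ± 0.0951 in WT females (SD, n = 4), and lost the call with quantile normalization (0.08, adjusted p = 0.497). Psma7 of the alpha ring rose by 0.23 ± 0.07 (limma adjusted p = 0.021), at 1.98 ± 0.210 in MG-cKO females and 1.54 ± 0.0388 in WT females. The Psma7 call was lost without WT female region 3 (0.21, adjusted p = 0.0573), MG-cKO female region 1 (0.21, adjusted p = 0.0646) or MG-cKO female region 3 (0.19, adjusted p = 0.0851), and with quantile normalization (0.12, adjusted p = 0.213). The other catalytic subunits of the standard core, Psmb5 and Psmb6, were not called, with log2 changes of 0.23 and -0.05.

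Psmb9, which takes the place of Psmb6 in the immunoproteasome, read 1.71, 1.59, 1.62 and 1.64 in MG-cKO, 1.38, 1.28, 1.64 and 1.60 in BMM-cKO and 1.70, 1.68, 1.81 and 1.70 in WT females. Its ratios overlapped between MG-cKO and WT, and the change of -0.20 ± 0.07 (limma adjusted p = 0.0464) was relative to the median target of each region. The median over all targets stood at 1.06 to 1.12 times the negative probe in MG-cKO females and 1.01 to 1.04 times in WT females. The call was kept in 1 of 8 fits that left out a region, that without MG-cKO female region 2, with changes of -0.18 to -0.21 in the others, and was lost with the negative probe in place of centring (-0.07, adjusted p = 0.602), without the filter (-0.17, adjusted p = 0.151), with a pseudocount of 10 (-0.18, adjusted p = 0.0536) and with only the groups compared in the fit (-0.20, adjusted p = 0.0686). On the deposited scale the change became 0.13.

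Markers of other cells moved in the same comparison. All 9 tested neuron markers rose, with a median log2 change of 1.28, and all 9 tested microglia markers fell, with a median of -0.39. Summed over 10 genes the microglia markers were at 12.5 to 13.2 in MG-cKO females and 15.0 to 15.9 in WT females. Of 8 astrocyte markers 3 rose and none fell, with sums of 26.1 to 28.8 in MG-cKO females and 13.1 to 17.4 in WT females, and the blood marker Hba-a1 rose by 2.16 (limma adjusted p = 0.00271). No oligodendrocyte or endothelial marker was called. The part of these cells in the proteasome changes was not tested. With the negative probe in place of centring, 15 of the 43 genes were higher and none lower. Of all 9981 tested targets 2811 were higher and 121 lower in that setting. With quantile normalization 5 genes were higher and 4 lower, beside 1279 and 1247 of all targets. On the deposited scale 36 genes were higher and none lower, beside 7066 and 18 of all targets. The proteasome share was above that of all targets with the negative probe and on the deposited scale, and below it with quantile normalization. Regions that share an animal would make these p-values too small.

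**Figure D3:**
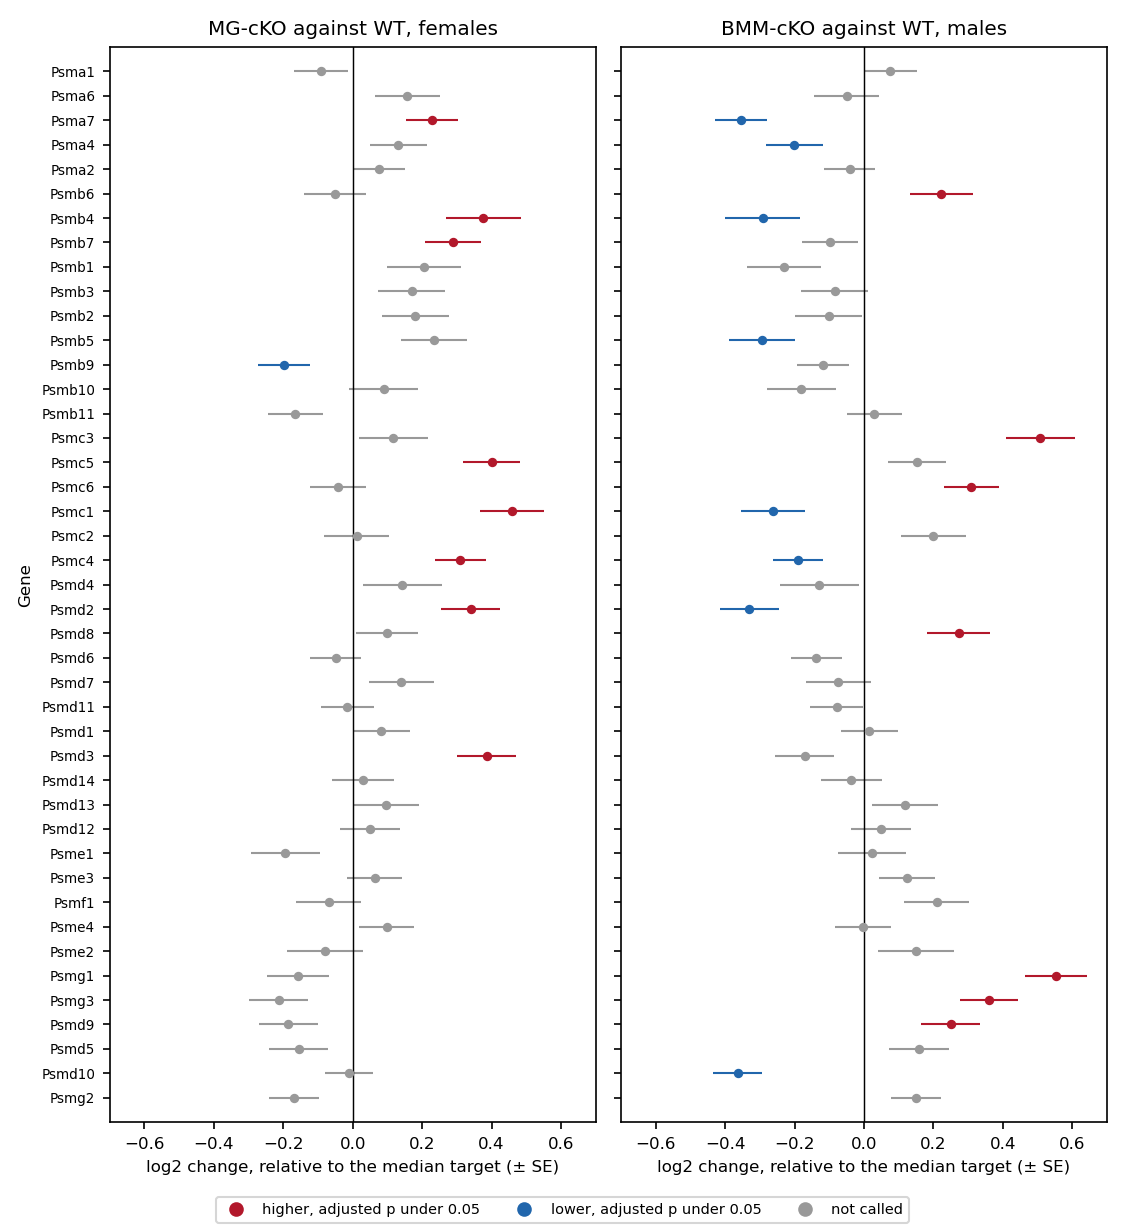
Log2 change ± SE of the 43 tested genes (down the page, by role), relative to the median target, in MG-cKO against WT females on the left and BMM-cKO against WT males on the right, with called genes in red (higher) and blue (lower). On the left 8 genes are red and Psmb9 is blue, and on the right 7 are red and 8 blue.

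In BMM-cKO against WT males the proteasome genes moved both ways. The chaperones Psmg1 and Psmg3 and the ATPase genes Psmc3 and Psmc6 rose most, and the chaperone Psmd10, the alpha ring gene Psma7 and the scaffold gene Psmd2 fell most. Of 43 genes, 7 rose and 8 fell, with a median change of -0.04, beside 53.6% of all tested targets called (27.8% higher and 25.7% lower) and a proteasome share of 34.9%. Ratios did not overlap for 18 of the 48 genes, against 48.5% of all targets. Among assembly genes 3 of 6 rose and 1 fell, among ATPase genes 2 rose and 2 fell of 6, in the beta ring 1 rose and 2 fell of 7, in the alpha ring 2 of 5 fell, and 1 rose and 1 fell of the 11 non-ATPase genes.

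Psmg1, a chaperone that starts the building of the alpha ring, read 1.33, 1.79, 1.71 and 1.77 in MG-cKO regions of males, 2.03, 2.15, 2.06 and 2.00 in those of BMM-cKO males and 1.39, 1.32, 1.67 and 1.35 in those of WT males. The 4 BMM-cKO values were the highest of the 12 male values and stood apart from the rest. The rise over WT was 0.55 ± 0.09, or 1.47-fold (limma adjusted p = 1.03e-05). Psmg3, a second chaperone of the alpha ring, read 1.38, 1.76, 1.58 and 1.54 in MG-cKO regions of males, 1.88, 1.93, 1.95 and 1.91 in those of BMM-cKO males and 1.49, 1.58, 1.62 and 1.39 in those of WT males. The BMM-cKO values were again on top, within 0.1 of each other, with a rise of 0.36 ± 0.08 (adjusted p = 0.000734) over WT. BMM-cKO male regions had the most estimated tags of the male groups, at 6672788 to 10779960 against 1839154 to 4589359 in WT males. Their proteasome median also varied least, so the narrow range is not particular to this gene. Psmd9, a chaperone of the base, rose by 0.25 ± 0.09 (limma adjusted p = 0.0154). The fall among assembly genes was in Psmd10, another chaperone of the base, which read 1.28, 1.53, 1.31 and 1.27 in MG-cKO regions of males, 1.18, 1.19, 1.19 and 1.15 in those of BMM-cKO males and 1.46, 1.54, 1.62 and 1.54 in those of WT males. Its BMM-cKO values were the lowest of the male regions, with a change of -0.36 ± 0.07 (limma adjusted p = 8.35e-05) against WT. Psmg2, the partner of Psmg1 in the same dimer, was not called, with a change of 0.15 ± 0.07 (limma adjusted p = 0.0754).

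Psmc3, an ATPase, read 1.53, 2.27, 2.39 and 1.98 in MG-cKO regions of males, 2.65, 2.77, 2.58 and 2.45 in those of BMM-cKO males and 1.78, 1.99, 2.03 and 1.68 in those of WT males. BMM-cKO lay above both other groups without overlap, with a rise of 0.51 ± 0.10 (limma adjusted p = 0.000103) over WT. Psmc6, also of the ring, read 1.41, 1.83, 1.77 and 1.68 in MG-cKO regions of males, 1.89, 1.85, 1.67 and 1.80 in those of BMM-cKO males and 1.45, 1.58, 1.45 and 1.43 in those of WT males, with a rise of 0.31 ± 0.08 (adjusted p = 0.00189). The ATPase genes Psmc1 and Psmc4 fell. Psmc1 read 1.60, 1.71, 1.98 and 1.68 in MG-cKO regions of males, 1.48, 1.55, 1.45 and 1.51 in those of BMM-cKO males and 1.68, 1.83, 1.84 and 1.96 in those of WT males, with a change of -0.26 ± 0.09 (adjusted p = 0.0178) against WT. Psmc4 changed by -0.19 ± 0.07 (limma adjusted p = 0.0288). For Psmc1 and Psmc6 the BMM-cKO and WT values did not overlap.

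Psma7 read 1.53, 1.64, 1.68 and 1.53 in MG-cKO regions of males, 1.32, 1.29, 1.34 and 1.30 in those of BMM-cKO males and 1.58, 1.74, 1.97 and 1.57 in those of WT males. BMM-cKO was lowest without overlap, with a change of -0.35 ± 0.07 (limma adjusted p = 0.00027) against WT, and Psma4 changed by -0.20 ± 0.08 (adjusted p = 0.0407). Psmd2 read 1.36, 1.55, 1.64 and 1.68 in MG-cKO regions of males, 1.25, 1.46, 1.45 and 1.43 in those of BMM-cKO males and 1.53, 1.93, 2.11 and 1.62 in those of WT males, with a change of -0.33 ± 0.09 (adjusted p = 0.00195) against WT. Psmd8, a lid subunit, rose by 0.27 ± 0.09 (limma adjusted p = 0.0122) and lost the call without WT male region 4 (0.22, adjusted p = 0.0542). In the beta ring, Psmb6 rose by 0.22 ± 0.09 (limma adjusted p = 0.0377).

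Psmb5, the catalytic subunit that cuts after hydrophobic residues, read 1.22, 1.24, 1.29 and 1.27 in MG-cKO regions of males, 1.02, 1.17, 1.06 and 1.09 in those of BMM-cKO males and 1.28, 1.29, 1.62 and 1.24 in those of WT males. Region 3 of WT males stood above the other 3, and without it the change of -0.29 ± 0.09 (limma adjusted p = 0.0107) became -0.23 with adjusted p = 0.0581. Psmb4 read 1.61, 2.31, 2.36 and 2.39 in MG-cKO regions of males, 1.69, 1.88, 1.71 and 1.84 in those of BMM-cKO males and 2.03, 2.26, 2.74 and 1.92 in those of WT males. Its change of -0.29 ± 0.11 (limma adjusted p = 0.0244) lost the call without WT male region 3 (-0.21, adjusted p = 0.116) and without BMM-cKO male region 1 or 3 (-0.27 each, adjusted p = 0.0603 and 0.0619).

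Several of these calls were lost when 1 region was left out. Psma4 and Psmb6 each kept the call in 2 of 8 fits that left out a region, with -0.15 to -0.21 and 0.19 to 0.23 where it was lost, which for Psma4 was without any 1 BMM-cKO male region or WT male region 2 or 3, and for Psmb6 without any 1 BMM-cKO male region or WT male region 1 or 4. Psmc4 lost the call without BMM-cKO male region 1 (-0.18) or 3 (-0.15) or WT male region 2 (-0.14), Psmc1 without WT male region 4 (-0.22) and Psmd9 without BMM-cKO male region 2 (0.21). Without the filter Psma4 (-0.13), Psmc1 (-0.20) and Psmc4 (-0.12) were not called, and with the negative probe in place of centring Psma4 (-0.22) and Psmb6 (0.20) were not.

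Of 9 tested neuron markers 7 fell in this comparison, with a median log2 change of -0.59. Of 9 microglia markers 5 fell and 2 rose (median -0.22), 3 of 8 astrocyte and 2 of 7 oligodendrocyte markers fell (medians -0.26 and -0.60), and 1 of 6 endothelial markers rose. The part of these cells in the proteasome changes was not tested. On the deposited scale, where BMM-cKO male values are higher throughout, all 43 genes were higher. Without the filter 12 genes were higher and 4 lower, and with quantile normalization 7 were higher and 11 lower. P-values carry the same limit of regions that may share an animal.

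**Figure D4:**
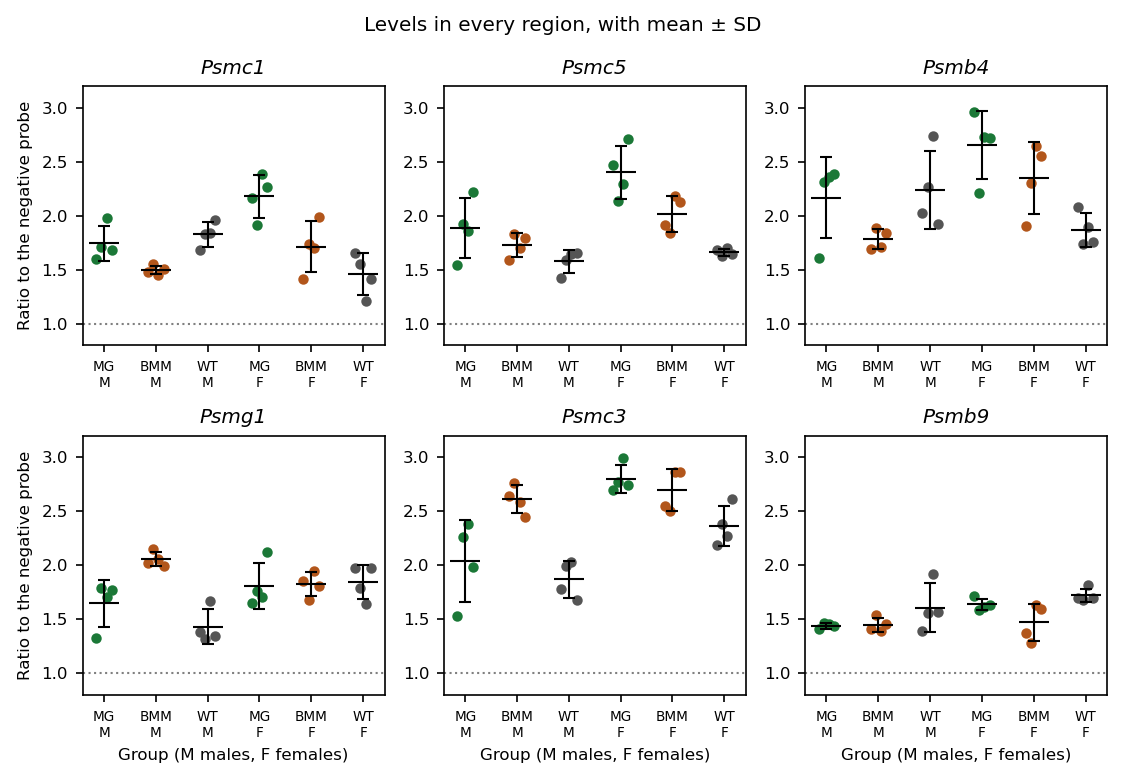
Ratio to the negative probe of Psmc1, Psmc5, Psmb4, Psmg1, Psmc3 and Psmb9 in every region (points) with mean ± SD (bars), for MG-cKO, BMM-cKO and WT males (M) and then females (F), with the negative probe as a dotted line at 1. Psmc1 and Psmc5 are highest in MG-cKO females, and Psmg1 is highest in BMM-cKO males, at 2.00 to 2.15.

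Comparing MG-cKO with WT males, no proteasome gene was called by limma, beside 0.481% of all tested targets (0.441% higher and 0.0401% lower). An unadjusted p under 0.05 was found for 7 of 43 genes and for 1498 of all 9981 tested targets, a similar share. No gene of the 48 had groups free of overlap, against 5.00% of all targets. The median change was 0.05. Psmc5 had the smallest p, at 1.54, 1.92, 1.86 and 2.22 in MG-cKO regions of males, 1.59, 1.83, 1.70 and 1.79 in those of BMM-cKO males and 1.42, 1.59, 1.65 and 1.65 in those of WT males. The change of 0.26 ± 0.08 against WT had limma adjusted p = 0.139, with MG-cKO region 1 inside the WT range. Psmb9 read 1.41, 1.47, 1.45 and 1.43 in MG-cKO regions of males, 1.42, 1.54, 1.39 and 1.46 in those of BMM-cKO males and 1.39, 1.55, 1.92 and 1.57 in those of WT males. WT male region 3 was the highest of these, and the change of -0.13 ± 0.07 had limma adjusted p = 0.411. No tested marker of another cell type was called, and neuron sums of the 2 groups overlapped, at 19.0 to 30.0 in MG-cKO and 22.6 to 30.8 in WT males. Leaving out MG-cKO male region 1 gave 1 call. On the deposited scale 39 genes were higher and none lower.

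In BMM-cKO against WT females, 1 gene rose and 1 fell, beside 2.34% of all tested targets (1.35% higher and 0.992% lower). Psmc4 was at 1.63, 1.47, 1.81 and 1.76 in BMM-cKO and 1.41, 1.25, 1.25 and 1.22 in WT females, a rise of 0.29 ± 0.07 (limma adjusted p = 0.0299). Psmb9 was at 1.47 ± 0.171 in BMM-cKO and 1.72 ± 0.0621 in WT females (SD, n = 4), a change of -0.31 ± 0.07 (limma adjusted p = 0.0294). In both genes the ratios did not overlap, as for 4 of the 48 genes and 8.90% of all targets. Each call was kept in 3 of 8 fits that left out a region. None was left without WT female region 2, 3 or 4, with Psmc4 at 0.27 to 0.29 and Psmb9 at -0.28 to -0.31, and 1 without BMM-cKO female region 2, 3 or 4. None was left with only these groups in the fit. The negative probe in place of centring left 1 gene higher and none lower, and on the deposited scale 43 were higher, with Psmb9 at 0.34. Of the other cell markers none of 9 neuron markers, 2 of 9 microglia markers, both lower in BMM-cKO, and 1 of 8 astrocyte markers, higher in BMM-cKO, were called here. These p-values are also too small if regions share an animal.

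Both knockouts were set against the same WT female regions. Psmc4 changed by 0.31 in MG-cKO and 0.29 in BMM-cKO females, and Psmb9 by -0.20 in MG-cKO and -0.31 in BMM-cKO females, and these pairs of values are not independent.

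MG-cKO against BMM-cKO males gave 3 genes higher and 4 lower of 43, beside 38.5% of all tested targets (18.1% higher and 20.4% lower), and ratios free of overlap for 11 of the 48 genes, against 34.9% of all targets. The genes that were lower in MG-cKO were Psmc3 at -0.38 ± 0.10 (limma adjusted p = 0.00331), Psmg1 at -0.34 ± 0.09 (adjusted p = 0.00395), Psmg3 at -0.31 ± 0.08 (adjusted p = 0.00501) and Psmg2 at -0.18 ± 0.07 (adjusted p = 0.0468). All 3 called alpha ring chaperones were thus lower in MG-cKO. Psma7 was higher by 0.27 ± 0.07 (limma adjusted p = 0.00601), Psmb1, a structural beta subunit, by 0.27 ± 0.11 (adjusted p = 0.0429) and Psmd10 by 0.18 ± 0.07 (adjusted p = 0.0391). Psmb1 read 1.65, 1.67, 2.03 and 1.96 in MG-cKO and 1.49, 1.61, 1.50 and 1.39 in BMM-cKO males, without overlap. Psmg2 read 1.13, 1.11, 1.05 and 1.19 in MG-cKO and 1.17, 1.33, 1.22 and 1.32 in BMM-cKO males, with some overlap. The calls of Psmg2, Psmd10 and Psmb1 were kept in 3, 2 and 1 of 8 fits that left out a region, and each was lost without BMM-cKO male region 2 (-0.16, 0.18 and 0.30), 3 (-0.19, 0.19 and 0.27) or 4 (-0.15, 0.17 and 0.24), which left 4 calls. Quantile normalization gave 8 higher and 5 lower. Of the neuron markers 5 of 9 were higher in MG-cKO males, as were 2 of 8 astrocyte, 3 of 9 microglia and 1 of 7 oligodendrocyte markers, while 1 microglia and 1 endothelial marker were lower, and their part was not tested. On the deposited scale all 43 genes were lower in MG-cKO. Regions that share an animal would make these p-values too small.

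In MG-cKO against BMM-cKO females, 2 genes rose and none fell, beside 14.6% of all tested targets (11.0% higher and 3.54% lower). Psmc1 was higher by 0.30 ± 0.09 (limma adjusted p = 0.0237), and Psmb7 by 0.25 ± 0.08 (adjusted p = 0.0341). Psmb7 read 2.72, 2.12, 2.69 and 2.47 in MG-cKO, 1.98, 1.78, 2.06 and 2.28 in BMM-cKO and 1.81, 1.79, 2.00 and 1.85 in WT females. The ratios of both genes overlapped between the knockouts, and 3 of the 48 genes had none, against 7.96% of all targets. No call was left without MG-cKO female region 3 (0.27 and 0.22), without MG-cKO female region 4 (0.30 and 0.26) or without BMM-cKO female region 1 (0.23 and 0.25), and 1 was left without MG-cKO female region 1 or BMM-cKO female region 2. With quantile normalization 1 gene was lower and none higher, and with only these groups in the fit none was called. On the deposited scale 27 genes were lower, and both changes turned sign, to -0.01 and -0.07. Of the neuron markers 7 of 9 were higher in MG-cKO females, as were 2 of 8 astrocyte markers and Hba-a1 (1.68), and their part was not tested. Regions may share an animal here too.

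**Figure D5:**
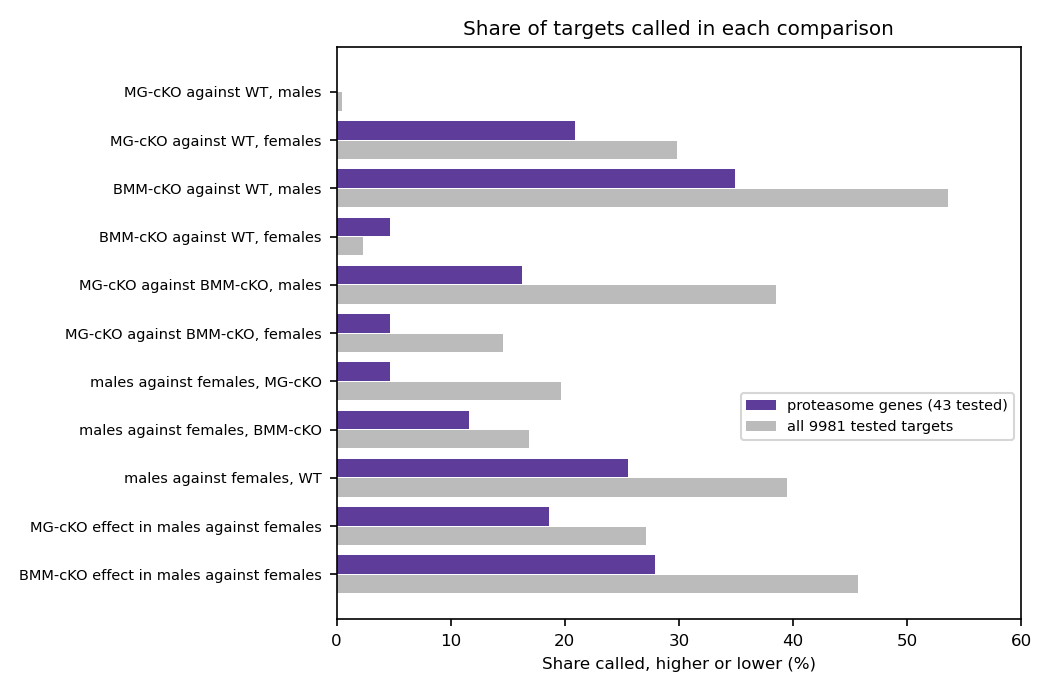
Share of the 43 tested proteasome genes (purple) and of all 9981 tested targets (grey) that were called higher or lower, in percent, for each of the 11 comparisons. With each region centred, the proteasome share is below the grey bar in 10 comparisons, for example 34.9% beside 53.6% in BMM-cKO against WT males. It is above the grey bar in BMM-cKO against WT females, at 4.65% beside 2.34%.

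Males and females were compared within each genotype, on scans that differ as the sexes do. In WT, 4 proteasome genes were higher and 7 lower in males, beside 39.5% of all tested targets (16.3% higher and 23.2% lower), and 8 of the 48 genes had ratios free of overlap, against 31.3%. The genes lower in WT males included Psmg1, Psmg3 and Psmd9 of assembly, Psmc3 and Psmc6 of the ATPase ring, Psmd8 and Psmb6. Psmg1 read 1.65, 1.76, 1.71 and 2.12 in MG-cKO, 1.86, 1.68, 1.95 and 1.81 in BMM-cKO and 1.97, 1.79, 1.64 and 1.98 in WT females. The change in males against females was -0.35 ± 0.09 (limma adjusted p = 0.00253) in WT and 0.29 ± 0.09 (adjusted p = 0.0255) in BMM-cKO. Psmg3 read 1.91, 1.97, 1.54 and 1.75 in MG-cKO, 1.66, 2.03, 1.81 and 1.89 in BMM-cKO and 1.97, 1.80, 1.91 and 1.91 in WT females, and the WT change was -0.30 ± 0.08 (adjusted p = 0.00517). Psmc3 read 2.69, 2.77, 2.99 and 2.74 in MG-cKO, 2.55, 2.51, 2.86 and 2.87 in BMM-cKO and 2.19, 2.39, 2.28 and 2.62 in WT females, with a WT change of -0.32 ± 0.10 (adjusted p = 0.0103). The WT male values of Psmg3 and Psmc3 lay below all WT female values. The WT males also serve as controls in the genotype comparisons above, so these values are not independent of those. Psmc1, Psmc4, Psmd2 and Psmd3 were higher in WT males, with Psmc1 at 0.35 ± 0.09 (limma adjusted p = 0.00363). The calls of Psmc4, Psmd2 and Psmd3 were kept in 6, 3 and 3 of 8 fits that left out a region, and each was lost without WT male region 2, at 0.17, 0.19 and 0.17. The negative probe left 1 gene higher and 7 lower, quantile normalization 9 higher and 7 lower, and the deposited scale 34 higher and none lower. Of cell markers, 5 of 9 microglia, 4 of 8 astrocyte and 2 of 9 neuron markers were higher in WT males, and 1 microglia, 1 astrocyte and 1 endothelial marker were lower. Their part was not tested.

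In BMM-cKO, 1 gene was higher and 4 lower in males, beside 16.9% of all tested targets (5.66% higher and 11.2% lower), and 15 of the 48 genes had ratios free of overlap, against 20.5%. The 4 were Psmb1 at -0.32 ± 0.11 (limma adjusted p = 0.0372), Psmc4 at -0.27 ± 0.07 (adjusted p = 0.013), Psma7 at -0.25 ± 0.07 (adjusted p = 0.0214) and Psmd2 at -0.24 ± 0.09 (adjusted p = 0.0491). The number of calls was 1 without BMM-cKO male region 2 or 3, 2 without BMM-cKO male region 1 or 4 or BMM-cKO female region 4, and 3 without BMM-cKO female region 2 or 3. Psmb1 and Psmd2 each kept the call in 1 of 8 such fits, Psmg1 in 3 and Psma7 in 5, and Psmc4 lost it without BMM-cKO male region 3 (-0.23). The negative probe left none higher and 8 lower, quantile normalization 4 higher and 4 lower, and the deposited scale 43 higher. In BMM-cKO males 3 of 9 microglia markers and 1 of 6 endothelial markers were higher, and 2 of 9 neuron and 1 of 8 astrocyte markers were lower, and their part was not tested. In MG-cKO, Psmc3 at -0.32 ± 0.10 (limma adjusted p = 0.022) and Psmd2 at -0.30 ± 0.09 (adjusted p = 0.0114) were lower in males, beside 19.7% of all tested targets (6.06% higher and 13.7% lower), and 13 of the 48 genes had ratios free of overlap, against 17.2%. Psmc3 lost the call without MG-cKO male region 1 (-0.21) or 4 (-0.30) or MG-cKO female region 3 (-0.30). With the negative probe in place of centring, 17 genes were lower in MG-cKO males, beside 95 higher and 3342 lower of 9981 tested targets. The proteasome share was then above that of all targets. Quantile normalization left 1 gene higher and none lower, beside 590 and 726 of all targets. On the deposited scale 28 genes were higher, beside 7116 higher and 422 lower of all targets. Neuron sums were 19.0 to 30.0 in MG-cKO males and 47.3 to 83.6 in MG-cKO females, with 7 of 9 neuron markers lower in males, and 8 of 9 microglia markers were higher in males (median 0.53), while 2 of 8 astrocyte markers were lower. Their part was not tested. Regions may share animals in all 3 comparisons of the sexes.

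The genotype changes themselves differed between the sexes. For MG-cKO the change against WT was lower in males than in females for 7 genes and higher for 1, beside 27.1% of all tested targets (12.8% higher and 14.2% lower). Psmd2 differed most, with a change against WT of -0.19 in males and 0.34 in females and a difference of -0.53 ± 0.12 (limma adjusted p = 0.00232). Psmc1 followed with a difference of -0.51 ± 0.13 (adjusted p = 0.00491). The count moved between 4 without MG-cKO female region 3 and 13 without MG-cKO female region 2, and was 5 without MG-cKO female region 1, WT male region 3 or WT female region 4. Quantile normalization gave 6 genes higher and 4 lower, the negative probe gave 10 lower and none higher, and on the deposited scale 1 was higher and 6 lower. For BMM-cKO, 6 genes differed upwards and 6 downwards, beside 45.7% of all tested targets (24.2% higher and 21.5% lower). Psmg1 differed by 0.64 ± 0.13 (limma adjusted p = 0.000205), with a change against WT of 0.55 in males and -0.09 in females. Psmb4 differed by -0.54 ± 0.15 (adjusted p = 0.00519), with -0.29 in males and 0.25 in females. With the negative probe 3 were higher and 9 lower, with quantile normalization 8 were higher and 8 lower, and on the deposited scale 42 were higher. Beside these, 7 of 9 neuron markers were lower (median -1.28), 6 of 9 microglia markers were higher (median 0.46), 2 of 8 astrocyte markers were lower and the blood marker Hba-a1 was lower (-2.14) in the MG-cKO difference. In the BMM-cKO difference 4 neuron markers (median -0.81) and 3 astrocyte markers were lower, 2 microglia markers were higher and 1 was lower, and 1 of 6 endothelial markers was higher. The part of these cells in the proteasome values was not tested, sex and scan cannot be told apart, and regions may share animals.

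Genes that work with the proteasome but fall outside the name rule were followed as 3 lists, chosen with results of these regions known. Of 14 partners and assembly factors 11 were measured and 10 tested, and Sem1, a small lid subunit, Nfe2l1 and Zfand5, an activator, had the highest mean ratios, at 2.04, 1.91 and 1.80. Nfe2l1 encodes the transcription factor that raises proteasome genes when proteasome activity falls, and Pomp encodes the protein that completes the core. In MG-cKO against WT females 2 of 10 rose and none fell, beside 17.9% of all tested targets higher and 11.9% lower, with Nfe2l1 at 0.72 ± 0.09 (limma adjusted p = 1.59e-06) and Pomp at 0.45 ± 0.10 (adjusted p = 0.00147). Nfe2l1 averaged 2.69 ± 0.320 in MG-cKO, 2.16 ± 0.370 in BMM-cKO and 1.50 ± 0.184 in WT females (SD, n = 4). In BMM-cKO against WT males 5 of 10 rose and 3 fell, beside 27.8% of all tested targets higher and 25.7% lower. Nfe2l1 changed by -0.77 ± 0.09 (limma adjusted p = 3e-07) and Pomp by -0.58 ± 0.10 (adjusted p = 3.44e-05), while the proteasome-bound deubiquitinases Uchl5 and Usp14 rose by 0.46 ± 0.09 (adjusted p = 5.35e-05) and 0.42 ± 0.08 (adjusted p = 8.32e-05). Nfe2l1 averaged 1.90 ± 0.163 in MG-cKO males, 1.18 ± 0.0300 in BMM-cKO males and 2.05 ± 0.143 in WT males. Nfe2l1 was the 1 of 10 that rose in BMM-cKO against WT females, where 1.35% of all tested targets did, by 0.45 ± 0.09 (limma adjusted p = 0.0108). In MG-cKO against BMM-cKO 3 rose and 3 fell in males and 1 rose in females, beside 38.5% and 14.6% of all tested targets called, and none of any of the 3 lists was called in MG-cKO against WT males.

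Of 25 genes of ubiquitin supply and delivery 24 were measured and 16 tested. Ubb, which encodes ubiquitin, had a mean ratio far above the others, at 17.9, followed by the cargo receptor Sqstm1 at 2.97 and the neuronal deubiquitinase Uchl1 at 1.67. In MG-cKO against WT females 4 of 16 rose and none fell, 4 calls in all beside 29.8% of all tested targets called (17.9% higher). The 4 were the shuttle factors Rad23b at 0.46 ± 0.09 (limma adjusted p = 0.000272) and Ubqln1 at 0.40 ± 0.08 (adjusted p = 0.000554), Sqstm1 at 0.38 ± 0.13 (adjusted p = 0.0265) and the activating enzyme Uba1 at 0.30 ± 0.08 (adjusted p = 0.00879). In BMM-cKO against WT males 2 of 16 rose and 2 fell, beside 53.6% of all tested targets called, with Uchl3 at 0.55 ± 0.10 (limma adjusted p = 2.72e-05) and Rad23b at -0.42 ± 0.09 (adjusted p = 0.000216). Ubb was not called in either comparison, with 0.93 ± 0.48 in MG-cKO females and -0.83 ± 0.48 in BMM-cKO males. In MG-cKO against BMM-cKO males 2 rose and 2 fell, beside 38.5% of all tested targets called.

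Of 10 genes of antigen processing downstream of the immunoproteasome 3 were tested, among them B2m and Irf1, with mean ratios of 1.62 and 1.15. The 7 not tested lay under the filter, and the median of the 10 was 0.916. B2m, the light chain of class I molecules, fell by 0.37 on the log2 scale in BMM-cKO against WT males (limma adjusted p = 0.00848).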

How the data were processed

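The deposited table holds 1 signal value per target and region; per the file headers the columns are regions, and the authors' normalization is not given in the sources used here. In each region at least 99.98% of the deposited signal values were whole multiples of 1 step (within 0.01), from which tag totals were taken. The geometric mean over all targets was equal within a group but ran between groups from 105.9 to 388.2, so the authors scaled groups separately and deposited levels cannot be compared between groups. Among the remaining tables, 5 repeated these values without a difference, and a table of 12 columns named by genotype was not used.

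Ratios to the negative probe of the same region were computed first. Group tests used limma 3.58.1 in R 4.3.3 (lmFit, eBayes with trend) on log2(value + 1), each region centred on its median, over 9981 of 19962 targets with 1 coefficient per group over 24 regions and Benjamini-Hochberg adjusted p under 0.05. Centring removes any change shared by most targets, and folds near background understate a change. Values are mean ± SD over regions or log2 change ± SE. Tested on simulated data for MG-cKO against WT females over 9981 targets, it found 32.8% of the log2 changes of 0.3, 93.2% of those of 0.6 and 100% of those of 1, and made 10 false calls. The simulated regions were independent, and only 58, 73 and 69 targets were changed at these sizes. In the data 29.8% of tested targets were called in this comparison and regions may share an animal. The simulation therefore gives no error rate for the data. Tags are PCR products, so depth covers counting error only.

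Regions were grouped by the animal group label. WT female region 1 lay on library plate B with the males while plate C held the remaining female regions, and male region names carry a plus sign after TMEM119. Alternatives were the negative probe in place of centring, quantile normalization, the deposited values, no filter, a pseudocount of 10, only the groups compared and each region left out. Region-level values are given for the 2 genes of each role with the highest mean ratio, for immunoproteasome and tissue-restricted genes, and for the called genes with the 5 largest and 5 smallest changes of a comparison. Other genes named in the comparisons were chosen after their values were seen. Results of 1 tested gene of antigen processing are not reported here. Members and lists were chosen with earlier results of these data known. Promoters are from RefSeq GRCm38.p6, in which all 50 symbols were found.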

Additional observations from a re-analysis of the deposited data

Results flagged for a closer look

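In 13 of 168 groups of 4 regions, over 28 genes, 1 region stood apart from the other 3 by Dixon's gap at its 95% critical value. Chance marks about 1 in 20 such groups. The values are ratios to the negative probe.

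Among MG-cKO males, Psmb4 was 1.61 in region 1, with the nearest other at 2.31, and region 2 read 0.974 for Psmb10 (nearest 1.22) and 1.53 for Psmd10 (nearest 1.31). Among BMM-cKO males, Psma6 was 1.57 in region 2 (nearest 1.42), Psmb10 was 1.00 in region 3 (nearest 1.12), and region 1 read 1.76 for Psmb7 (nearest 1.91) and 1.25 for Psmd2 (nearest 1.43). In WT males Psmb5 was 1.62 in region 3, with the nearest at 1.29. Among MG-cKO females, Psmc4 was 1.89 in region 3 (nearest 1.71) and Psmg2 1.38 in region 4 (nearest 1.23). In BMM-cKO females Psmd3 was 1.10 in region 1, far below the nearest at 1.52. Among WT females, Psma6 was 1.93 in region 1 (nearest 1.49) and Psmb9 1.81 in region 3 (nearest 1.70). Region 1 of the BMM-cKO males and region 2 of the MG-cKO males appear 2 times each.

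The knockout change differed between the sexes, by limma's test of the difference, for 8 of 43 genes with MG-cKO and 12 with BMM-cKO. These shares, 18.6% and 27.9%, were below those of all tested targets, 27.1% and 45.7%. For MG-cKO the log2 change in males minus that in females was -0.53 for Psmd2, -0.51 for Psmc1, -0.42 for Psmd3, -0.41 for Psmb4, -0.34 for Psmc4, -0.33 for Psmb7, -0.31 for Psma7 and 0.37 for Psmg1. For BMM-cKO it was -0.54 for Psmb4, -0.48 for Psmc4, -0.47 for Psmd2, -0.42 for Psmc1 and for Psma7, and -0.39 for Psmd3. On the other side it was 0.64 for Psmg1, 0.48 for Psmg3, 0.44 for Psmc6, 0.41 for Psmf1, 0.39 for Psmc3 and 0.29 for Psmd9. With MG-cKO the calls of Psma7, Psmb4, Psmb7 and Psmg1 were kept in 11, 7, 9 and 8 of 16 fits that left out a region. With BMM-cKO those of Psmd9 and Psmc3 were kept in 6 and 15 of 16, and Psmc3 lost the call without WT female region 4 (0.34). Both sets of differences use the same WT regions. Sex and scan cannot be told apart in any of these.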

How the results depend on the processing

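No paired analysis was possible because region numbers follow the order of the samples and pair no regions. The planned edgeR fit on whole tags was not run, since the deposited values did not pass as recovered reads. Deposited values carry the separate scaling of each group, which moved the median log2 change over all tested targets to 1.49 in BMM-cKO against WT males, -1.18 in MG-cKO against BMM-cKO males, 1.22 in males against females of BMM-cKO, 0.86 in the BMM-cKO difference between sexes and 0.64 in BMM-cKO against WT females. It moved it by about 0.3 elsewhere, apart from the MG-cKO difference between sexes (-0.01). The negative probe in place of centring moved it to 0.10 in MG-cKO against WT females, -0.16 in males against females of MG-cKO and -0.13 in the MG-cKO difference between sexes.

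On deposited values the number of genes called was 39 in MG-cKO against WT males, 36 in MG-cKO against WT females and 43 in BMM-cKO against WT males, against WT females and in MG-cKO against BMM-cKO males, 27 in MG-cKO against BMM-cKO females, 28 in MG-cKO, 43 in BMM-cKO and 34 in WT males against females, and 42 in the BMM-cKO difference between sexes. With the negative probe it was 15 and 1 in MG-cKO and BMM-cKO against WT females, 17 in MG-cKO and 8 in BMM-cKO males against females. Quantile normalization gave 13 in MG-cKO against BMM-cKO males, 1 in that of females, 1 in MG-cKO and 8 in BMM-cKO males against females. Without the filter it was 1 in BMM-cKO against WT females, 1 in MG-cKO against BMM-cKO females, 9 in MG-cKO and 3 in BMM-cKO males against females, and 4 in the MG-cKO difference between sexes. With only the groups compared in the fit it was 0 in BMM-cKO against WT females and in MG-cKO against BMM-cKO females, 11 in MG-cKO against BMM-cKO males and 1 in MG-cKO males against females. Calls among all 9981 tested targets moved as well. On deposited values 8039 targets were higher and none lower in MG-cKO against WT males. The negative probe left 36 higher and 2086 lower in BMM-cKO males against females. Quantile normalization gave 1944 higher and 2214 lower in MG-cKO against BMM-cKO males. The counts of genes therefore show how calls depend on the processing, and do not by themselves set the proteasome genes apart.

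Leaving out 1 region gave 0 to 1 calls in MG-cKO against WT males, 7 to 13 and 0 to 2 in MG-cKO and BMM-cKO against WT females, 11 to 16 in BMM-cKO against WT males, 4 to 6 and 0 to 3 in MG-cKO against BMM-cKO males and females, 1 to 3, 1 to 6 and 9 to 12 in males against females of MG-cKO, BMM-cKO and WT, and 4 to 13 and 10 to 14 in the MG-cKO and BMM-cKO differences between sexes. Of 73 called pairs of gene and comparison 41 kept the call in every such fit.

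On deposited values 33 of these log2 changes turned sign, by the shift above. Psmb9 against WT females became 0.13 in MG-cKO and 0.34 in BMM-cKO. In BMM-cKO against WT males they were 1.13 for Psmd10, 1.15 for Psma7, 1.17 for Psmd2 1.21 for Psmb5 and Psmb4, 1.24 for Psmc1, 1.3 for Psma4 and 1.31 for Psmc4. In MG-cKO against BMM-cKO they were -1.01 for Psmd10 and -0.92 for Psma7 and Psmb1 in males, and -0.07 for Psmb7 and -0.01 for Psmc1 in females. In males against females they were 0.01 for Psmc3 and 0.02 for Psmd2 in MG-cKO, 0.95 for Psma7, 0.88 for Psmb1, 0.94 for Psmc4 and 0.96 for Psmd2 in BMM-cKO, and 0.07 for Psmb6, 0.02 for Psmc3, 0.04 for Psmc6 and Psmg3, 0.03 for Psmd8 and 0.06 for Psmd9 in WT. In the BMM-cKO difference they were 0.44 for Psma7 and Psmc1, 0.32 for Psmb4, 0.37 for Psmc4, 0.39 for Psmd2 and 0.47 for Psmd3. Quantile normalization turned Psmc3 in MG-cKO males against females to 0.01, and the cause was not tested.

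Most of these genes stand within a ratio of 2 of the negative probe. Psmb8, Psma8, Psma3, Psma5 and Psmg4 lay under the filter and are too near background to compare. Passing the filter does not place a gene clear of background. Psme2 and Psmd12 passed it at mean ratios of 1.08 and 1.11, and Psmg2, called in MG-cKO against BMM-cKO males, averaged 1.23.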
